A study of Mus musculus with 12 samples.

Results

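The genes described here are 5 genes of glycerol metabolism and glyceroneogenesis, measured by RNA sequencing in mouse brown adipose tissue, the fat that burns lipid to make heat. They were chosen by symbol: Gpd1, Gpd2, Aqp7, Pck1 and glycerol kinase, which the count table lists under its older symbol Gyk. All 5 were found among the 24197 genes of the table, and all 5 were among the 15265 genes with enough counts to test. The 12 libraries fall into 4 groups of 3. Mutant animals carried the genotype Adipoq-Cre+; Ebf2 fl/fl and were kept at 4 °C for 1 week or at room temperature (RT). Control animals, Adipoq-Cre-; Ebf2 fl/fl, were kept at the same temperatures. Every group therefore carried the floxed Ebf2 alleles, and all animals were 8 to 10 weeks old. Adipoq-Cre is a recombinase driven by the adiponectin promoter, which is active in adipocytes, so other cells of the tissue keep Ebf2. No label ties a library to a separate animal, so the p-values measure the spread between these libraries, which may be technical.

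When a fat cell breaks down triglyceride, glycerol leaves through aquaglyceroporin channels such as Aqp7, or is phosphorylated again by glycerol kinase. Glycerol 3-phosphate, the backbone for new triglyceride, also comes from dihydroxyacetone phosphate through the cytosolic dehydrogenase Gpd1. In glyceroneogenesis that dihydroxyacetone phosphate is built from pyruvate or amino acids by way of Pck1, the cytosolic phosphoenolpyruvate carboxykinase. Gpd1 and the mitochondrial dehydrogenase Gpd2 form the glycerol phosphate shuttle, which passes electrons from cytosolic NADH to the respiratory chain and is active in brown fat.

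Library totals ran from 25835650 to 37927038 counts, and 3 counts correspond to between 0.0763 and 0.114 CPM (counts scaled to 1 common library total). All 12 brown adipocyte markers listed had counts in all 12 libraries. The Ebf2 level did not separate the genotypes at RT, where it was 65.2, 45.7 and 38.3 CPM in libraries labelled mutant and 47.4, 64.1 and 32 CPM in those labelled control. In the cold it was 28.7, 21.6 and 27 CPM in mutants where controls had 52.3, 42.2 and 41.6 CPM (-0.82 ± 0.25 SE as a log2 fold change, edgeR adjusted p = 0.153). The count covers the whole gene and may hold exons that remain after recombination. Mutant and control therefore stand for libraries labelled so, and each genotype direction rests on those labels. Ucp1, which lets brown fat mitochondria make heat, was at 2019, 718 and 1186 CPM in mutants and 2684, 5616 and 5057 CPM in controls at RT, without overlap (-1.77 ± 0.39 SE, edgeR adjusted p = 0.0199, lost without mutant RT library 2 or 3 or control RT library 2 or 3). In the cold Ucp1 was 10968, 11673 and 5864 CPM in mutants and 12209, 11502 and 12087 CPM in controls (-0.33 ± 0.38, adjusted p = 0.716). The summed CPM of 26 skeletal muscle genes also varied within every group, and took 2.29% of the counts in mutant RT library 3, 3.28% and 2.36% in control RT libraries 1 and 3, 1.08% in control cold library 3 and at most 0.726% in the other libraries. Other marker sums moved as well. The 8 endothelial genes summed to 1066 to 1097 CPM in mutants and 977 to 1104 CPM in controls in the cold, above the 695 to 888 CPM of mutants and 640.3 to 955 CPM of controls at RT. The brown adipocyte markers summed to 39214 to 42343 CPM in mutants and 30663 to 32891 CPM in controls in the cold, and to 27341 to 33144 CPM in mutants and 22973 to 27451 CPM in controls at RT. Genes within this sum went different ways, so it does not rank the groups by brown adipocyte content. In the cold Lpl averaged 15774 CPM in mutants and 5551 CPM in controls. Ucp1 averaged 9502 and 11933 CPM there, and Cidea 2204 and 2379 CPM. At RT Lpl averaged 12649.9 CPM in mutants and 7667 CPM in controls. Ucp1 averaged 1308 and 4452 CPM there, and Cidea 1465 and 2616 CPM. Mutant cold library 3 stood apart, with 279 CPM of 8 epithelial genes, against 13.5 and 9.7 CPM in the other mutant cold libraries, and 2344 CPM of 10 fibroblast and preadipocyte genes, against 805 and 668 CPM. The part of these cells in the members' values was not tested. In bulk tissue, fewer cells of a type and less RNA per cell cannot be told apart.

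The promoters of Pck1 and Gyk are shown because these were the members called lower (Pck1) and higher by the largest fold (Gyk) in the cold in mutants. Gpd1 was also called higher there. The stretches run from 250 bases before to 10 bases after the annotated start, in RefSeq on mouse build GRCm38.p6, and capitals mark motif matches on either strand. Pck1 lies at chr2:173152823-173153082 on the plus strand, and glycerol kinase (RefSeq symbol Gk) at chrX:85776810-85777069 on the minus strand.
Pck1: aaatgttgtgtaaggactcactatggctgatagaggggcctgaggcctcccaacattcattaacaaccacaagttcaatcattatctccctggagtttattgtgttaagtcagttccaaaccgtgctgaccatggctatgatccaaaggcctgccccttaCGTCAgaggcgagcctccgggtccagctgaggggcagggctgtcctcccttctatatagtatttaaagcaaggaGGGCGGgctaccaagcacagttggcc
Gyk: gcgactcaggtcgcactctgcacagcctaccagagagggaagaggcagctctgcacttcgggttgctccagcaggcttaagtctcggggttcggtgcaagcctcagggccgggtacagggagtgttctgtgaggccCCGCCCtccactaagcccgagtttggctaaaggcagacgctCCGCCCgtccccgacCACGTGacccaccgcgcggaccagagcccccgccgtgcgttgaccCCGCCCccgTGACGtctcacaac

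Both promoters held TGACG, the core of the element through which cAMP acts on many genes, 90 bases upstream of the start in Pck1 and 4 bases upstream in Gyk. The Pck1 match is the reverse complement, CGTCA. In the rat promoter this region of Pck1 is a long-studied cAMP response element. Of 32851 promoter windows of 300 bases in the same table, 20.8% held TGACG. The GC box GGGCGG, found in 35.7% of windows, matched once in Pck1, 16 bases upstream, and 114, 73 and 13 bases upstream in Gyk. The E-box CACGTG, found in 7.15% of windows, matched 58 bases upstream in Gyk. Neither window held the full palindrome TGACGTCA (1.79% of windows), the nuclear receptor hexamer AGGTCA (16.3%), its direct repeat bound by PPAR factors (0.0396%), the C/EBP pattern TTGCNNAA (10.8%) or the EBF palindrome (0.904%). The table matched 4 of the 5 genes, all but Gpd1. A match in these letters is a description and not a bound site.

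Levels between genes were compared per kilobase of exon, as RPKM. Gpd1 averaged 4256 RPKM over the 12 libraries and ranked 6 of 15128 genes with a length. Pck1 averaged 1866 RPKM and ranked 20. Gpd2 averaged 172 RPKM (rank 434), Aqp7 84.9 RPKM (rank 809) and Gyk 76.1 RPKM (rank 891). The cytosolic dehydrogenase and the carboxykinase were thus among the most abundant transcripts of the tissue, and the channel and the kinase were far lower. The order among members changed with condition: Gyk exceeded Aqp7 in mutants in the cold (136 ± 29.3 against 86.1 ± 15.1 RPKM, SD, n = 3) and lay below it in mutants at RT (39.3 ± 15.8 against 86.5 ± 14.7 RPKM).

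**Figure D1:**
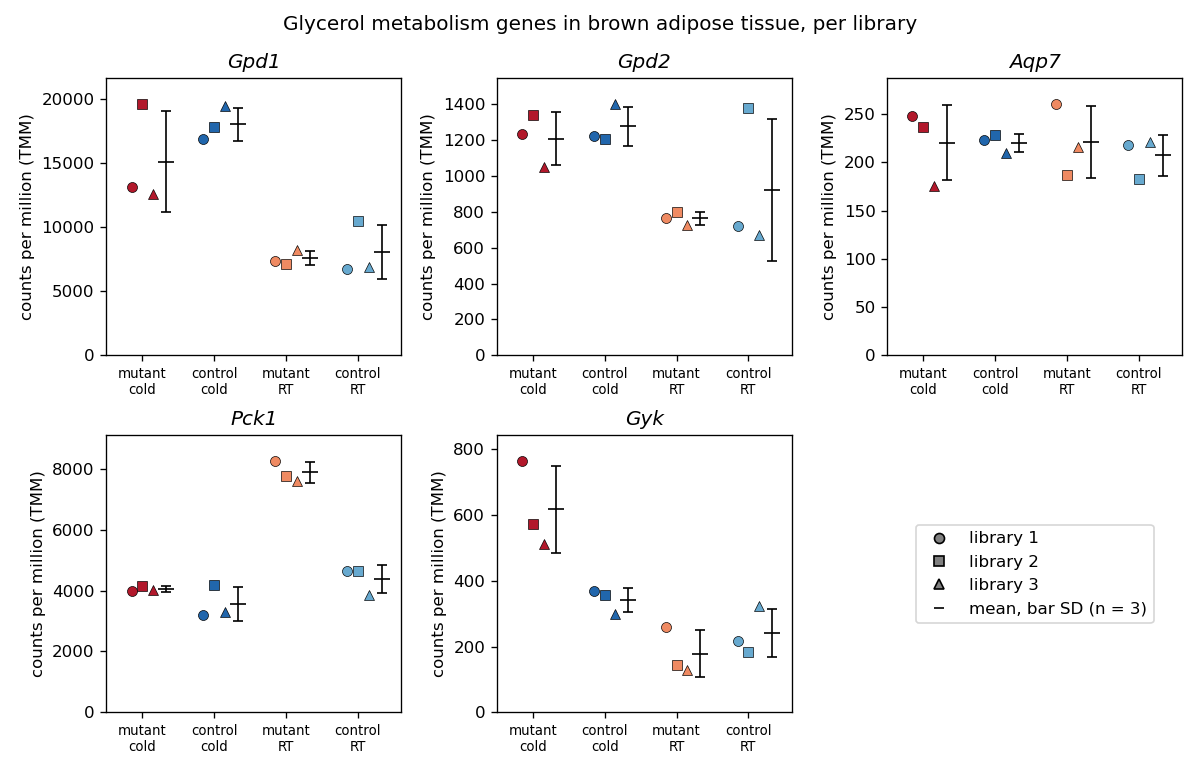
Level of each glycerol metabolism gene in every library, in CPM with TMM library sizes. Circles, squares and triangles are libraries 1, 2 and 3 of a group, and bars give the mean and SD (n = 3). Gpd1 sat at 12550.4 CPM or more in all 6 cold libraries, Pck1 at 7595 CPM or more only in the 3 mutant RT libraries, and Aqp7 between 176 and 261 CPM throughout.

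Gpd1, which reduces dihydroxyacetone phosphate to glycerol 3-phosphate, was higher in the cold in both genotypes. In mutants it was 13123, 19623 and 12550.4 CPM in the cold against 7374, 7143 and 8181 CPM at RT. In controls it was 16845, 17802 and 19403 CPM in the cold against 6727, 10454 and 6888 CPM at RT. Every cold library lay above every RT library; in controls Gpd1 was the 1 member without overlap, where 33.2% of all genes tested had none. Among the 5 members, Gpd1 was 1 of 3 called in mutants, where 17.4% of all genes tested were called (edgeR quasi-likelihood test, Benjamini-Hochberg adjusted p under 0.05), and the only one called in controls, where 6.62% were. Its log2 fold change was 1.00 ± 0.23 (SE, adjusted p = 0.011) in mutants and 1.17 ± 0.23 (adjusted p = 0.0127) in controls, both by edgeR, about 2-fold and 2.25-fold. The difference between the cold effects in the 2 genotypes, -0.17 ± 0.32, was not called (edgeR adjusted p = 0.894), and none of the 5 members was called in this interaction test, where 0.478% of all genes were. Between genotypes Gpd1 overlapped at both temperatures, with log2 differences of -0.08 ± 0.23 at RT (adjusted p = 0.887) and -0.25 ± 0.23 in the cold (adjusted p = 0.623).

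The Gpd1 calls were not robust to every library. Without mutant cold library 2 or mutant RT library 2 the call in mutants was lost (largest edgeR adjusted p = 0.0596), and without control cold library 2 or 3 or control RT library 3 the call in controls was lost (0.0678). Among control RT libraries, Gpd1 was highest in library 2, the one poor in muscle transcripts (0.0122% of counts). The order differed between groups. Among mutant RT and among control cold libraries, Gpd1 was highest in library 3, the richest in muscle transcripts (2.29% and 1.08%). Among mutant cold libraries it was lowest in library 3, also the richest (0.726%). Without the 4 muscle-rich libraries, which leaves 1 control RT library, the log2 fold change in the cold was 1.05 in mutants (adjusted p = 0.0719) and 0.73 in controls (adjusted p = 0.377). The part of muscle in these values was not tested.

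Gpd2, the mitochondrial member of the shuttle, passed the test in none of the comparisons. In mutants it was 1233, 1338 and 1048 CPM in the cold against 765, 799 and 726 CPM at RT. These libraries did not overlap, with a log2 fold change of 0.66 ± 0.24 (SE, edgeR adjusted p = 0.0831). In this comparison 4 of the 5 members did not overlap, and so did not 32.6% of all genes tested. In controls Gpd2 was 1220.5, 1205 and 1401 CPM in the cold against 719, 1374 and 668 CPM at RT, and RT library 2 lay inside the cold range (0.47 ± 0.24, adjusted p = 0.263). Without that library the difference was 0.88 (adjusted p = 0.0146). Without the 4 muscle-rich libraries, which leaves only that RT library, it was -0.18 (adjusted p = 0.731). Between genotypes the log2 differences were -0.27 ± 0.24 at RT (adjusted p = 0.603) and -0.08 ± 0.24 in the cold (adjusted p = 0.902), and the interaction was 0.19 ± 0.34 (adjusted p = 0.89).

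Aqp7, a channel through which adipocytes release glycerol, was the steadiest member. Its level was 248, 237 and 176 CPM in mutants in the cold, 223, 228 and 210 CPM in controls in the cold, 261, 187 and 216 CPM in mutants at RT and 218, 183 and 221 CPM in controls at RT. All 4 groups overlapped. The log2 differences were 0.09 ± 0.16 for genotype at RT, 0.00 ± 0.16 for genotype in the cold, -0.01 ± 0.16 for cold in mutants and 0.09 ± 0.16 for cold in controls, with edgeR adjusted p between 0.785 and 0.999. The SD of its log2 level over the 12 libraries was 0.166, against 0.753 for Gyk.

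Glycerol kinase (Gyk), which returns free glycerol to glycerol 3-phosphate, was higher in the cold in the libraries labelled mutant, where its level was 766, 574 and 512 CPM in the cold against 260, 145 and 129 CPM at RT. Every cold library exceeded every RT library. The log2 fold change was 1.80 ± 0.29 (SE, edgeR adjusted p = 0.00156), or 3.47-fold, in a comparison where 10.0% of all genes tested were called higher. The call held in each of the 6 fits that left out 1 library (largest adjusted p = 0.0117), and the value with the 4 muscle-rich libraries left out was 1.61 (adjusted p = 0.02).

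In controls Gyk was 370.1, 356 and 299.8 CPM in the cold against 218, 185 and 324 CPM at RT. RT library 3 lay inside the cold range, and the log2 fold change of 0.50 ± 0.28 (SE) was not called (edgeR adjusted p = 0.311). In the cold every mutant library lay above every control library. That genotype difference of 0.85 ± 0.28, or 1.81-fold, was not called (adjusted p = 0.184), in a comparison where 24.8% of all genes did not overlap and 1.12% were called. It was called by DESeq2 (0.87, adjusted p = 0.0451) and by limma-voom (1.02, adjusted p = 0.0208). At RT mutants and controls overlapped, at -0.45 ± 0.28 (edgeR adjusted p = 0.424). The cold effects in the 2 genotypes differed by 1.30 ± 0.40 (unadjusted p = 0.00688), which missed the threshold after adjustment over all genes (edgeR adjusted p = 0.211) and passed it with DESeq2 (1.31, adjusted p = 0.0348) and limma-voom (1.87, adjusted p = 0.0101).

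**Figure D2:**
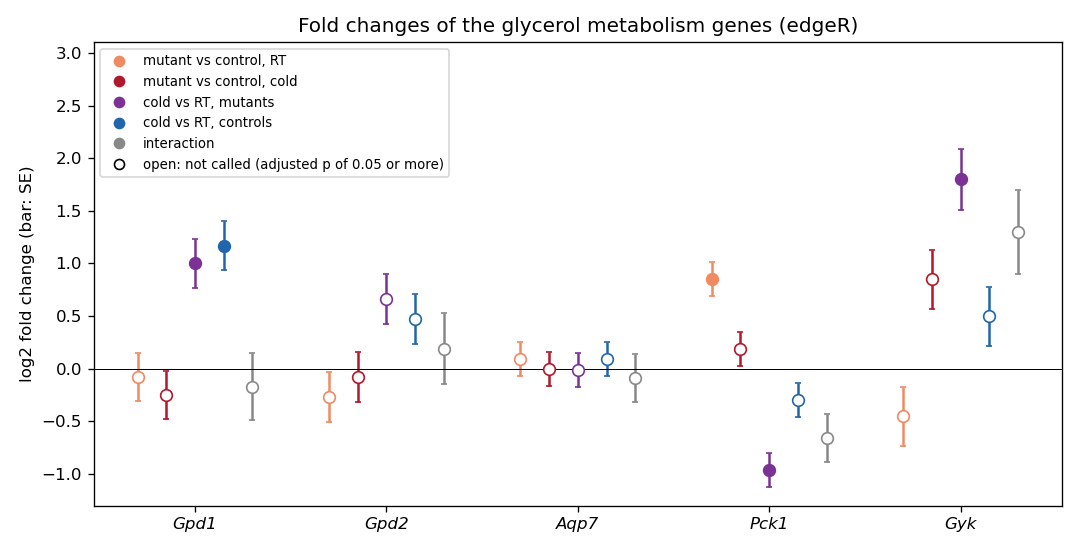
Log2 fold change of each glycerol metabolism gene in the 4 comparisons and the interaction, with SE bars from edgeR; filled points have an adjusted p under 0.05. Gyk at 1.80 and Pck1 at -0.96, both for cold in mutants, lie farthest apart, and every Aqp7 point lies within its SE of 0.

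Pck1, the carboxykinase of glyceroneogenesis, was higher at RT in libraries labelled mutant than in those labelled control, and lower in the cold than at RT in mutants. At RT its level was 8266, 7774 and 7595 CPM in mutants against 4641, 4639 and 3862 CPM in controls. The groups did not overlap, in a comparison where 24.8% of all genes tested did not, in either direction. The difference of 0.85 ± 0.16 on the log2 scale (SE, edgeR adjusted p = 0.00906) was 1.8-fold, and Pck1 was the only member called, where 6.24% of all genes tested were. Leaving out control RT library 3 moved the adjusted p to 0.0502, at 0.77. Without the 4 muscle-rich libraries the difference was 0.79 (adjusted p = 0.314).

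In the cold Pck1 was 3976, 4144 and 4026 CPM in mutants, against 3187, 4186 and 3282 CPM in controls. These values overlapped (0.19 ± 0.16 SE, edgeR adjusted p = 0.602), unlike those at RT. In mutants the cold libraries held 0.514 times the RT level, a log2 fold change of -0.96 ± 0.16 (adjusted p = 0.00199), where 7.42% of all genes tested were called lower. That call held in each of 6 fits leaving out 1 library (largest adjusted p = 0.0179), and with the muscle-rich libraries left out (-0.99, adjusted p = 0.0375). In controls the cold difference was -0.30 ± 0.16 (adjusted p = 0.277). The interaction of -0.66 ± 0.23 (unadjusted p = 0.0131) was not called by edgeR (adjusted p = 0.256), and was by DESeq2 (-0.65, adjusted p = 0.0279) and limma-voom (-0.77, adjusted p = 0.0349). Ordered by mean level, mutants at RT stood apart from the other groups, while controls at RT, mutants in the cold and controls in the cold each overlapped the next.

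Over the 4 comparisons of 2 groups, 5 of the 20 tests of a member were called, 4 higher and 1 lower, and Gpd2 and Aqp7 were called in none. Of all genes tested, 6.24%, 1.12%, 17.4% and 6.62% were called for genotype at RT, genotype in the cold, cold in mutants and cold in controls. The median log2 fold change of the 5 members was -0.08 for genotype at RT, 0 for genotype in the cold, 0.66 for cold in mutants and 0.47 for cold in controls. Over all genes tested it was -0.04, -0.01, -0.01 and -0.01. The comparisons share libraries: the mutant RT libraries are the baseline of the cold effect in mutants and the tested side at RT, so the levels of Pck1 and Gyk there enter both.

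Ratios between members within a library do not depend on library size, and are given as descriptions. Gyk as a share of Pck1, per length, was 11.3%, 8.14% and 7.47% in mutants in the cold and 1.85%, 1.09% and 0.995% in mutants at RT. In controls it was 6.82%, 4.99% and 5.37% in the cold and 2.76%, 2.34% and 4.93% at RT. No pair of groups compared overlapped. The mutant mean was 0.392 times the control mean at RT and 1.57 times in the cold, and the cold mean was 6.85 times the RT mean in mutants and 1.72 times in controls.

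Pck1 as a share of Gpd1 was 32.6%, 22.7% and 34.5% in mutants in the cold, against 121%, 117% and 99.8% in mutants at RT. In controls it was 20.3%, 25.3% and 18.2% in the cold, against 74.2%, 47.7% and 60.3% at RT. The share was lower in the cold in every library of either genotype, and at RT every mutant library lay above every control library. Gpd1 exceeded Gpd2 by 16.1 to 31.4 times over the 12 libraries, and the cold and RT libraries did not overlap in this ratio in controls (29.3, 31.4 and 29.4 in the cold, 19.9, 16.1 and 21.9 at RT). In mutants they overlapped (22.6, 31.1 and 25.4 in the cold, 20.4, 19 and 23.9 at RT).

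**Figure D3:**
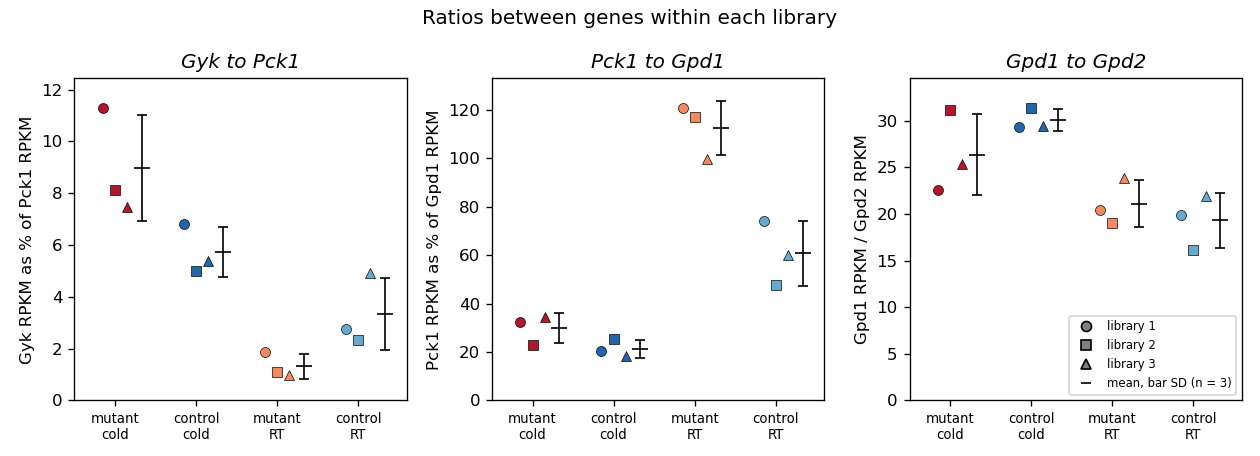
Ratios between members within each library, from RPKM values: Gyk as percent of Pck1, Pck1 as percent of Gpd1, and Gpd1 divided by Gpd2. Symbols are libraries and bars the mean and SD (n = 3); Gyk to Pck1 runs between 0.995% and 11.3%, lowest in mutants at RT.

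The genes whose levels followed each member most closely were found by the root-mean-square distance of centred log2 CPM over the 12 libraries, divided by the member's SD, among 12339 candidates. For Gpd1 they were the glycolytic enzymes Pfkl (0.306) and Pkm (0.325), and Dhrs7 (0.321). Pfkl, the liver-type phosphofructokinase, was 1879, 2563 and 1459 CPM in mutants in the cold and 848, 873 and 851 CPM in mutants at RT, and 1968, 2142 and 2292 CPM in controls in the cold and 674, 907 and 716 CPM in controls at RT. As for Gpd1, all cold libraries lay above all RT libraries. For Pck1 they were Gprc5b (0.33), Vcl, which encodes the adhesion protein vinculin (0.338), and Atxn10 (0.347). Gprc5b, an orphan G protein-coupled receptor, stood at 284, 328 and 276 CPM in mutants at RT and between 118 and 166 CPM in the other 9 libraries.

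For Gyk the closest were Pdss1, an enzyme of coenzyme Q synthesis (0.338), Timm8a1, a mitochondrial import chaperone (0.389), and Slc25a17, a peroxisomal carrier (0.411). Pdss1 was 22, 20.9 and 12.5 CPM in mutants in the cold, 14.4, 13.6 and 11.8 CPM in controls in the cold, 7.94, 4.72 and 5.95 CPM in mutants at RT and 9.18, 6.54 and 9.41 CPM in controls at RT. Its group order was that of Gyk. Gpd2 was followed less closely by Lyrm4 (0.404), Adck2 (0.426) and Kptn (0.447), and Aqp7 by Ufd1l (0.477), Nsfl1c (0.493) and Eif2b1 (0.494).

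The wider pathway was described with 6 lists of 84 genes, 77 of them tested. At RT libraries labelled mutant had 14 of them called higher and 2 lower, or 18.2% and 2.6% of those tested, against 3.92% and 2.32% of all genes. In the cold 1 was higher and 1 lower, where 0.727% and 0.393% of all genes were. In mutants 19 were higher in the cold and 12 lower, 24.7% and 15.6% against 10.0% and 7.42% of all genes. In controls 17 were higher and 1 lower, 22.1% and 1.3% against 4.31% and 2.31%. The median log2 fold change over the 77 was 0.13, 0.07, 0.13 and 0.22 in that order. Single libraries moved these counts. At RT the calls numbered 9 without mutant library 2, 10 without mutant library 3 and 8 without control library 3. In mutants the 31 calls were between 14 and 17 without any library but mutant cold library 3, and in controls the 18 were 9 and 8 without control cold library 2 or 3 and 10 without control RT library 3. Without the 4 muscle-rich libraries the calls at RT numbered 1, and 0, 12 and 0 in the other comparisons in the same order.

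**Figure D4:**
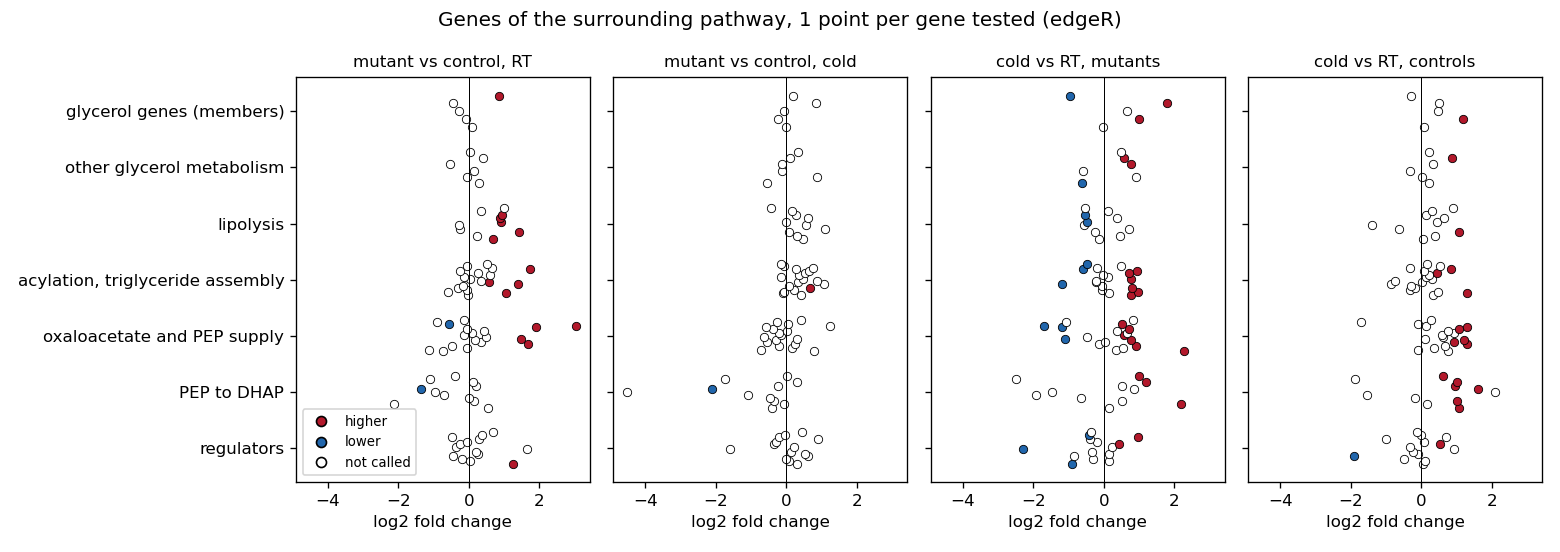
Log2 fold change of every tested gene of the 6 pathway lists and of the members, 1 point per gene, in the 4 comparisons of 2 groups. Red points are higher and blue lower at an edgeR adjusted p under 0.05; 14 list genes were higher in mutants at RT, and 2 were called in the cold between genotypes.

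Lipolysis releases the glycerol that Aqp7 and glycerol kinase handle. The list for it holds lipases, and also genes whose products do not release glycerol themselves, among them Adrb3 and Plin1. This list had 5 of 10 members called higher at RT in libraries labelled mutant and 0 lower, with a median log2 fold change of 0.78. Among all genes tested, 3.92% were called higher at RT and 2.32% lower. Adrb3, the beta-3 adrenergic receptor, was 624, 362 and 367 CPM in mutants and 222, 116 and 172 CPM in controls (1.41 ± 0.27 SE, edgeR adjusted p = 0.0106, and 0.0519 without control library 3). Plin1, the lipid droplet coat protein, was 2174, 2077 and 2218 CPM in mutants and 1241, 1189 and 968 CPM in controls (0.93 ± 0.15, adjusted p = 0.00392). The others, named after their values were seen, were the hormone-sensitive lipase Lipe at 0.91 ± 0.15 (adjusted p = 0.00514), the monoglyceride lipase Mgll at 0.88 ± 0.20 (0.0228) and Abhd5 at 0.69 ± 0.18 (0.0384). Plin1 and Lipe kept their calls in all 6 fits leaving out 1 library, Mgll lost its call without mutant library 2 or 3 or control library 3, and Abhd5 in 5 of the 6. In the cold none of the 10 was called between genotypes, where 1.12% of all genes tested were. In mutants Plin1 and Lipe were lower in the cold (-0.53 and -0.48), and in controls Adrb3 was higher (1.08 ± 0.27, adjusted p = 0.0368). Each of these 3 cold calls was lost in 5 of 6 leave-out fits.

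The list for glycerol phosphate acylation and triglyceride assembly also holds enzymes of other steps, such as Mogat1 and Dgat1. It had 4 of 18 members called higher at RT in libraries labelled mutant and 0 lower (median 0.15). Of all genes tested, the same 3.92% were called higher and 2.32% lower. Mogat1, a monoacylglycerol acyltransferase, was 27.2, 34.5 and 27.9 CPM in mutants and 10.3, 8.79 and 7.98 CPM in controls (1.72 ± 0.15 SE, edgeR adjusted p = 0.000245). Agpat9, the table's name for the acyltransferase Gpat3, stood at 1.38 ± 0.33 (adjusted p = 0.0301), a call lost in 5 of 6 leave-out fits. The others, named after their values were seen, were Agpat2, which makes phosphatidic acid, at 1.05 ± 0.18 (0.00504) and the triglyceride-forming Dgat1 at 0.56 ± 0.13 (0.0199, lost without mutant library 2 or 3 or control library 3). Agpat2 also rose in the cold in controls, with 2465, 2360.3 and 2369 CPM in the cold and 879, 1246 and 823 CPM at RT (1.29 ± 0.18, adjusted p = 0.00231), and so did Mogat1 (0.85 ± 0.15, 0.00789). Between genotypes in the cold Agpat5, an acyltransferase, was the only list member called (0.66 ± 0.13, adjusted p = 0.0346), a call lost whenever a library of these groups was left out. Of all genes tested, 1.12% were called in that comparison. Over cold in mutants, 6 members were higher, among them Agpat3 and Lpin3, and 3 lower, among them Mogat1 (-0.60 ± 0.15, adjusted p = 0.0163) and Agpat9 (-1.19 ± 0.33, adjusted p = 0.0288). Of all genes tested, 10.0% were called higher there and 7.42% lower. The Mogat1 call was lost without mutant cold or RT library 2, and that of Agpat9 in 5 of 6 fits.

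The next list covers the supply of oxaloacetate, which Pck1 uses, and of phosphoenolpyruvate, which it forms. The list also holds pyruvate kinases, which use phosphoenolpyruvate. At RT 4 of its 18 members tested were higher in libraries labelled mutant and 1 lower (median 0.02), against 3.92% and 2.32% of all genes. Slc25a10, the mitochondrial dicarboxylate carrier, was 657, 979 and 969 CPM in mutants and 173, 67.8 and 75 CPM in controls (3.04 ± 0.47 SE, edgeR adjusted p = 0.0043). Slc25a1, the citrate carrier, was 1568, 2339 and 1835 CPM in mutants and 588, 542 and 397 CPM in controls (1.91 ± 0.24, adjusted p = 0.00137). Me1, a malic enzyme, was higher too (1.68 ± 0.35, adjusted p = 0.0158, named after its values were seen), and Slc25a11, a carrier of oxoglutarate and malate, was lower (-0.55 ± 0.11, adjusted p = 0.0134); the Me1 call was lost without mutant library 2 or control library 2 or 3, and that of Slc25a11 without mutant library 2 or 3 or control library 3. Pyruvate carboxylase, Pcx, which forms oxaloacetate, is named after its values were seen. It averaged 2988 ± 400.2 CPM in mutants at RT, against 1063 ± 131 CPM in controls at RT (SD, n = 3). The log2 difference was 1.49 ± 0.19 (SE, edgeR adjusted p = 0.00141). In mutants Pcx was 1397 ± 131 CPM in the cold (-1.10 ± 0.19, adjusted p = 0.00255). Pcx and Pck1 were each called higher at RT in mutants and lower in the cold in mutants. So were Slc25a1, Slc25a10, Mogat1, Agpat9, Plin1, Lipe and Cebpa, and both calls use the mutant RT libraries. Pcx was not among the genes named as closest to Pck1, and how many of all genes had both calls was not counted. Over cold in mutants 6 list members were higher, including Got1, an aminotransferase, and Mdh2, and 3 were lower, including Slc25a1 and Slc25a10. Of all genes tested, 10.0% were called higher there and 7.42% lower. In controls 5 were higher in the cold and 0 lower, where 4.31% of all genes tested were called higher and 2.31% lower. Me1 (1.30) and Slc25a1 (1.29) were the largest, then the pyruvate carrier subunits Mpc2 (1.22) and Mpc1 (0.93) and pyruvate kinase Pkm (1.06). The calls of Got1 and Mdh2 in mutants and of Me1 in controls were each lost in 5 of 6 leave-out fits, that of Slc25a10 in mutants in 4, that of Pkm in controls in 3 and that of Slc25a1 in controls without control cold library 3, and Mdh2 overlapped between cold and RT.

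The list for the steps from phosphoenolpyruvate to dihydroxyacetone phosphate also holds aldolases and fructose bisphosphatases, which act beyond the steps that link Pck1 to Gpd1. Tpi1, whose enzyme forms dihydroxyacetone phosphate, is in the list of other glycerol metabolism genes and was called in no comparison. In controls 6 of 11 members were higher in the cold, Aldoa and Fbp2 among them, and 0 lower, with a median log2 fold change of 0.95. Of all genes tested, 4.31% were called higher and 2.31% lower. Aldoa, an aldolase, was 6868, 6454 and 8018 CPM in the cold and 3946, 2942 and 3208 CPM at RT (1.08 ± 0.19 SE, edgeR adjusted p = 0.00842, and 0.0527 without control cold library 3). In mutants 3 were higher in the cold (median 0.51), where 10.0% of all genes were, among them Pgam1, a phosphoglycerate mutase, at 1.20 ± 0.15 (adjusted p = 0.000452) and Aldoc at 2.19 ± 0.60 (0.0258, lost in 4 of 6 leave-out fits). Aldoc was low, at 22, 32 and 145 counts in the mutant cold libraries and 14, 12 and 14 counts in the mutant RT libraries. Fbp2, a muscle-type fructose bisphosphatase, was lower in mutants at RT (-1.35 ± 0.30, adjusted p = 0.021) and in the cold (-2.11 ± 0.30, adjusted p = 0.00855). Its level was 19.9, 15.1 and 10.9 CPM in mutants and 67.1, 57.7 and 73.3 CPM in controls in the cold, with no overlap. The call at RT was lost in 4 of 6 leave-out fits, and that in the cold without control cold library 3 (adjusted p = 0.0505). At RT Fbp2 was 9.75, 6.84 and 8.77 CPM in mutants and 30.5, 12.3 and 21.8 CPM in controls, and the muscle-rich libraries were mutant library 3 and control libraries 1 and 3. The part of muscle in the Fbp2 values was not tested.

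The other genes of glycerol metabolism had no call between genotypes at either temperature, where 6.24% of all genes tested were called at RT and 1.12% in the cold. In mutants Pck2, the mitochondrial carboxykinase, was higher in the cold (0.77 ± 0.21 SE, edgeR adjusted p = 0.0237) and so was the glycerol phosphate phosphatase Pgp (0.57 ± 0.17, 0.0329), while Dak, a kinase of dihydroxyacetone now called Tkfc, was lower (-0.63 ± 0.17, 0.023). In controls Pgp was higher (0.87 ± 0.17, adjusted p = 0.0117). Each of these calls was lost in 3 or 4 of 6 leave-out fits. Gk2 and Gykl1, further glycerol kinase genes, had 0 counts in all 12 libraries. Gk5, also of that family, averaged 3.7 CPM in mutants and 2.03 CPM in controls in the cold. At RT it averaged 1.95 and 2.01 CPM, and it was called in no comparison. Aqp3 and Aqp9, other glycerol channels on the list, averaged at most 0.341 and 0.234 CPM in a group and were not tested. Channels outside the list were not examined.

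Regulators of Pck1 and Gyk in fat, 14 genes, had median log2 fold changes of 0.12, 0.10, -0.32 and -0.06 in the 4 comparisons, for genotype at RT, genotype in the cold, cold in mutants and cold in controls. In that order 1, 0, 2 and 1 were called higher and 0, 0, 3 and 1 lower, where 3.92%, 0.727%, 10.0% and 4.31% of all genes were higher and 2.32%, 0.393%, 7.42% and 2.31% lower. Cebpa, a transcription factor of adipocytes, was higher at RT in mutants, at 1496, 1758 and 2029 CPM, against 849, 876 and 517 CPM in controls (1.24 ± 0.22 SE, edgeR adjusted p = 0.00673). In mutants it was lower in the cold (-0.91 ± 0.22, adjusted p = 0.0145, lost in 3 of 6 leave-out fits). Cebpa thus shared the direction of these calls with Pck1, as did Pcx, Slc25a1 and other list genes. Pparg, the receptor that drives fat cell genes, averaged 217 ± 35.7 CPM in mutants and 224 ± 24.2 CPM in controls at RT (SD, n = 3; adjusted p = 0.928). Foxo1, a transcription factor inhibited by insulin signalling, was lower in the cold in controls (-1.91 ± 0.30, adjusted p = 0.00513). Ppard, a PPAR receptor, was higher in the cold in mutants (0.44 ± 0.10, 0.00811) and in controls (0.53 ± 0.10, 0.00857, and 0.0576 without control cold library 2), and the coactivator Ppargc1b in mutants (0.97 ± 0.22, 0.0102). Nr4a1, an orphan nuclear receptor, was lower in the cold in mutants (-2.30 ± 0.61, 0.0308, lost in 5 of 6 leave-out fits), and so was Rela (-0.42 ± 0.11, 0.0219, lost in 3), named after its values were seen.

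**Figure D5:**
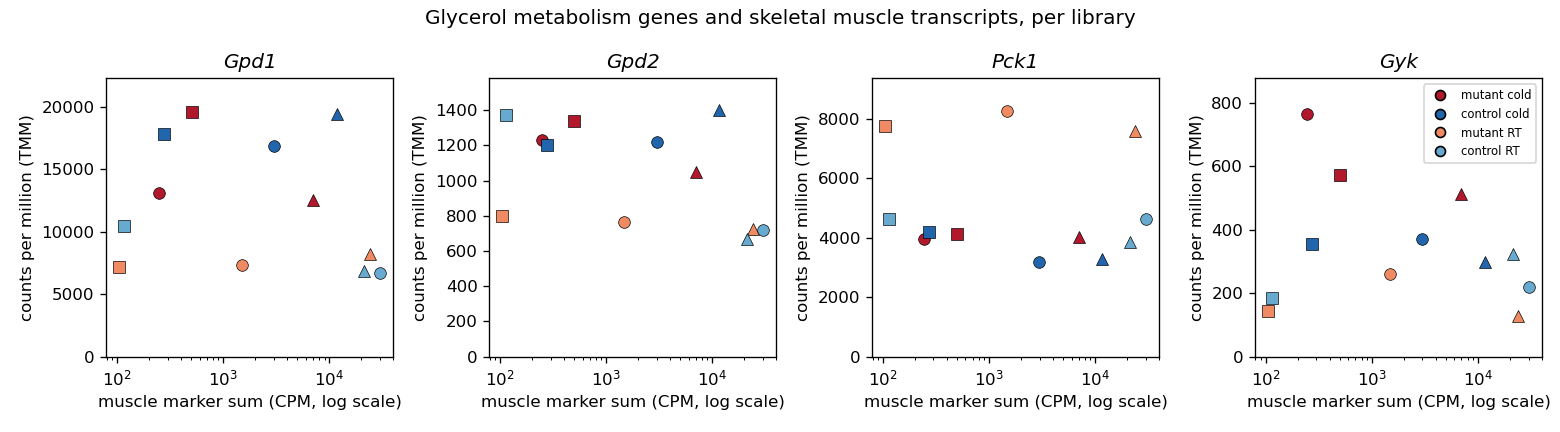
Level of Gpd1, Gpd2, Pck1 and Gyk in each library (CPM) against the summed CPM of 26 skeletal muscle genes on a log axis. Colours mark groups, and circles, squares and triangles libraries 1, 2 and 3. Control RT library 2, with 115 CPM of muscle genes, holds more Gpd1 and Gpd2 than control RT libraries 1 and 3, with 30248 and 21258 CPM. The other groups differ: Gpd1 is highest in the most muscle-rich library of mutants at RT (23954 CPM) and of controls in the cold (11670.3 CPM). It is lowest in that of mutants in the cold (6991 CPM).

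The muscle sum was 246, 502 and 6991 CPM in mutants in the cold, 2983, 275 and 11670.3 CPM in controls in the cold, 1486, 105 and 23954 CPM in mutants at RT and 30248, 115 and 21258 CPM in controls at RT. At RT Pck1 was 7774 CPM in mutant library 2 and 4639 CPM in control library 2, with 0.0101% and 0.0122% of counts in muscle genes. Without the 4 muscle-rich libraries the Pck1 difference at RT was not called, and the part of muscle in it was not tested.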

How the data were processed

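The data are raw counts per gene from RNA sequencing of brown adipose tissue in 12 libraries. The submitters' processing notes name STAR, featureCounts and build mm9 for the count table the authors deposited. The sources used here do not give versions, annotation, strand setting or the treatment of multiply matching reads, so reads from overlapping or near-identical genes cannot be separated. RNA came from TRIzol and column extraction, and libraries from a NEBNext Ultra kit, per the labels.

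The test was edgeR 4.0.16 (R 4.3.3), fitted to all 12 libraries together. After filterByExpr (minimum count 10, minimum total 15), TMM scaling and a robust quasi-likelihood fit with 1 coefficient per group were used, with 8 residual degrees of freedom. P-values are two-sided and Benjamini-Hochberg adjusted over 15265 genes, with calls under 0.05; SE is implied by the F statistic. CPM uses TMM-scaled library sizes, and RPKM divides CPM by union exon length in kilobases (GENCODE M21 basic, GRCm38). The script was tested on simulated data. Replicates differed by more than counting noise (chi-square over degrees of freedom 33.4 to 206), so none was deposited again. Counting precision is not the limit for the members, whose counts ran from 4020 to 542057. The CPM values of 3 counts concern counting error only, while SE and SD include the spread between libraries.

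The members, lists and comparisons were chosen with earlier results of these data known. Named genes are the members, Ebf2, Ucp1, up to 2 called genes per list, comparison and direction (the most abundant 2 where none is called), and the 3 genes most like each member. Some genes are named outside this rule with their values known, among them Pcx, Mpc1, Mpc2, Pparg, Lpl and Cidea. Promoters came from RefSeq (GRCm38.p6), and no coordinate was converted between builds. Alternatives were RLE scaling, DESeq2 1.42.0, limma-voom (limma 3.58.1) with quality weights, other filters, a non-robust fit, only the groups compared, a replicate block, each library left out, and the 4 muscle-rich libraries left out.

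Groups share replicate numbers, and nothing ties a number to an animal, litter or day. Correlations of same-numbered deviations exceeded 0.1 in all 3 pairs for genotype at room temperature (0.165 to 0.719) and cold in controls (0.142 to 0.647) with a prior count of 1 in log2 CPM. Taking log2 of CPM plus 1, they did so for cold in mutants only (0.186 to 0.62). Pairing is therefore unsettled.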

Additional observations from a re-analysis of the deposited data

Results flagged for a closer look

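No member's cold effect differed between the genotypes after adjustment over all genes; 3 genes of the pathway lists did, by the edgeR interaction test. Of all genes tested, 0.478% were called in this test.

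Mogat1, a monoacylglycerol acyltransferase, was lower in the cold in mutants and higher in the cold in controls, a difference of -1.46 ± 0.21 on the log2 scale (SE, edgeR adjusted p = 0.0161). Its level was 22, 18.5 and 18.3 CPM in mutants in the cold and 27.2, 34.5 and 27.9 CPM in mutants at RT, and 14.5, 17.2 and 17.3 CPM in controls in the cold and 10.3, 8.79 and 7.98 CPM in controls at RT. The call was lost without control cold library 2 or 3 (largest adjusted p = 0.0827).

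Slc25a1, the mitochondrial citrate carrier, moved the same way, at -2.48 ± 0.34 (SE, edgeR adjusted p = 0.0103). It was 739, 1132 and 646 CPM in mutants in the cold and 1568, 2339 and 1835 CPM in mutants at RT, and 1188, 1185 and 1353 CPM in controls in the cold and 588, 542 and 397 CPM in controls at RT. The call was lost without mutant cold library 1 or control cold library 3 (largest adjusted p = 0.0586).

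Agpat5, a lysophosphatidic acid acyltransferase, moved the other way, at 0.98 ± 0.18 (SE, edgeR adjusted p = 0.0449), with 46, 40.3 and 40.6 CPM in mutants in the cold and 22.2, 23.4 and 27.3 CPM in mutants at RT. In controls it was 27.8, 25.3 and 27.1 CPM in the cold and 26.7, 34.4 and 29.7 CPM at RT. Its call was lost in 10 of the 12 fits that left out 1 library (largest adjusted p = 0.158).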

How the results depend on the processing

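The calls of Pck1 and Gyk for cold in mutants held under every alternative run, in log2 fold changes and side of the threshold. With the replicate number as a block, none of the 25 values of the members changed its call, and 873, 125, 2671, 1014 and 34 genes were called for genotype at RT, genotype in the cold, cold in mutants, cold in controls and the interaction, against 952, 171, 2663, 1010 and 73 without it. At an unadjusted p under 0.05 the interaction held 1869 genes. Of the 77 pathway genes, DESeq2 called 24, 12, 36 and 31, and limma-voom 29, 11, 41 and 37, for genotype at RT, genotype in the cold, cold in mutants and cold in controls, and fitting only the groups compared called 16 for cold in mutants. The causes of the changes given here were not tested, apart from the smaller number of libraries where some were left out.

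DESeq2 called 1699, 745, 2018 and 452 genes for genotype at RT, genotype in the cold, cold in controls and the interaction. It gained Gyk for genotype in the cold (0.87) and for the interaction (1.31), Gpd2 for cold in mutants (0.65) and Pck1 for the interaction (-0.65). Limma-voom called 2844, 1119, 5075, 3402 and 1121 genes over the 5 tests. It gained Gyk at RT (-0.85), in the cold (1.02) and for the interaction (1.87), Gpd2 for cold in mutants (0.70) and in controls (0.80), and Pck1 for the interaction (-0.77). With limma-voom the sign turned for uncalled differences: for genotype at RT in Aqp7 (-0.06), Gpd1 (0.05), Gpd2 (0.07) and Tpi1 (-0.07), for cold in Aqp7 in mutants (0.21) and Ebf2 in controls (0.25), and for the interaction in Aqp7 (0.18) and Gpd2 (-0.10).

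Fitting only the groups compared called 552, 102 and 1633 genes for genotype at RT, genotype in the cold and cold in mutants, and gained Gpd2 for cold in mutants (0.66). The non-robust fit called 48 genes for the interaction. Without the 4 muscle-rich libraries, which leaves 1 control library at RT that is assumed to vary like the other groups, 129 genes were called at RT (33 higher, 96 lower), 18 in the cold, 1218 for cold in mutants, 13 for cold in controls and 26 for the interaction. Pck1 at RT (0.79), and Gpd1 for cold in mutants (1.05) and in controls (0.73), lost their calls there. The sign turned there for Gyk (0.14) and Ebf2 (-0.20) at RT, Gpd2 for cold in controls (-0.18), Gpd1 for the interaction (0.32) and Pdk4 for genotype in the cold (-0.01), none of them called.

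Leaving out 1 library at a time gave 395 to 1152 genes called for genotype at RT, 28 to 133 for genotype in the cold, 1466 to 3630 for cold in mutants, 313 to 971 for cold in controls and 13 to 204 for the interaction. The log2 difference of Pck1 at RT ran from 0.77 to 0.89, that of Gpd1 for cold from 0.75 to 1.11 in mutants and from 1.06 to 1.40 in controls, and that of Gpd2 for cold in controls from 0.29 to 0.88. Ranges that crossed 0, none with a call, were for genotype at RT -0.04 to 0.21 in Aqp7, -0.19 to 0.15 in Gpd1, -0.45 to 0.14 in Gpd2, -0.10 to 0.12 in Tpi1 and -0.18 to 0.33 in Ebf2. For genotype in the cold they were -0.16 to 0.01 in Gpd2, -0.04 to 0.16 in Pdk4 and -0.01 to 0.16 in Pgp. For cold they were -0.12 to 0.13 for Aqp7 in mutants and -0.30 to 0.19 for Ebf2 in controls, and for the interaction -0.19 to 0.04 in Aqp7 and -0.22 to 0.37 in Gpd2. With 3 libraries a group, the spread between libraries and not depth limits these comparisons.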
